A study of Mus musculus with 6 samples.

Results

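Interferon-stimulated genes were followed through the first days of reprogramming of mouse fibroblasts with wild-type OCT4 or with an OCT4 version labelled 5R. The 43 genes were listed by symbol, and 41 of them had at least 1 probe set on the array that names no other gene. For each gene the probe set with the highest mean log2(intensity + 16) was used. Of the 41 genes, 34 had a mean above the filter on dim probe sets (an intensity of 33.5) and were tested among 12622 genes, out of 18193 genes on the array. The other 7, Oas3, Oasl2, Dhx58, Mx1, Mx2, Cxcl9 and Cxcl11, lay below the filter, with intensities from 2.03 to 54.4. No value is given for Isg15, whose probe set also names Gm9706, or for Ifi44.

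The cells were embryonic fibroblasts of B6CBAF1/J mice that received OCT4, SOX2 and KLF4, with OCT4 either wild-type (the combination O(WT)SK) or in the 5R version (the combination O(5R)SK). The medium of all groups was that used for embryonic stem cells, containing fetal bovine serum and leukemia inhibitory factor, and RNA was taken on days 3, 5 and 7 of reprogramming. Each combination and day is 1 Affymetrix array, 6 arrays in all. What 5R stands for and how the factors were delivered are not given in the labels, and fibroblasts without factors were not analysed here. Nothing says whether the arrays came from separate cultures, so the p-values reflect how far these arrays differ among themselves, and that spread may be technical. In bulk RNA, fewer cells of a type and less RNA per cell cannot be told apart.

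Interferons are cytokines released by cells that sense viral or other foreign nucleic acid. Type I interferons bind a receptor whose kinases, JAK1 and TYK2, act on STAT2, which joins IRF9 in a complex that binds the interferon-stimulated response element (ISRE) of target genes. Interferon gamma acts at a different element, the gamma-activated site (GAS). The induced proteins block steps of viral replication, present antigen and feed back on the pathway, and many cells, fibroblasts included, express some of them at a low level without added interferon.

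Promoter sequences were available for 32 of the 43 genes in a RefSeq table of GRCm38.p6, as 250 bases before to 50 bases after the start of each gene. The ISRE core searched was GAAANNGAAA on both strands, and it occurred in 16 of the 32 promoters, against 3.99% of the 27025 genes and 3.44% of the 32851 promoters in that table. The GAS core searched was TTCNNNGAA, which is its own reverse complement, and it occurred in 9 of the 32 (28.1%), against 9.55% of genes and 8.3% of promoters. A match is a description of these letters and not evidence of binding. The 6 stretches here belong to genes on which the values turn: Ifit3, Gbp3 and Ifit1, the 3 with the largest day 3 differences among genes that hold a match, Bst2, whose matches overlap each other and its GAS match, Stat2, which was higher on day 7, and Cxcl10, the only chemokine tested. Each is written 5′ to 3′ on the strand of its gene, all of it before the start, with the ISRE core matches in capitals.
Ifit3, chr19:34583348-34583441, plus strand: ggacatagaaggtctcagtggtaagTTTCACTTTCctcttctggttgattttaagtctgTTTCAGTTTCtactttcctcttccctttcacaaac
Gbp3, chr3:142559974-142560039, plus strand: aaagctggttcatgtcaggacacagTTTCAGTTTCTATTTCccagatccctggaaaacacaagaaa
Ifit1, chr19:34640760-34640838, plus strand: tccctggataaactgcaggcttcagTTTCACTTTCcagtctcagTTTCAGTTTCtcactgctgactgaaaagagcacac
Bst2, chr8:71537562-71537627, minus strand: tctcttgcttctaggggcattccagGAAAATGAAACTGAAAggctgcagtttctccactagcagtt
Stat2, chr10:128270251-128270310, plus strand: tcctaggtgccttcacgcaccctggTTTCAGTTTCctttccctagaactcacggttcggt
Cxcl10, chr5:92349068-92349127, minus strand: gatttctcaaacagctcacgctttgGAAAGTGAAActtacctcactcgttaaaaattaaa
In Ifit3 the matches began 156 and 122 bases before the start, in Ifit1 104 and 85, and in Gbp3 45 and 39, where the pair shares the middle repeat. In Bst2 they began 130 and 124 bases before it and the GAS match TTCCAGGAA began at 136. The single matches of Stat2 and Cxcl10 began 222 and 213 bases before the start.

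The arrays had been brought to a common level before deposition, with a 2% trimmed mean of 500 on each. All 17 fibroblast markers looked for were above the filter, with Vim, Col1a2 and Fn1 brightest. Of 27 macrophage markers on the array 24 were above it. From day 3 through day 5 to day 7 their summed intensity was 24754, 14576 and 10602 under O(WT)SK and 24054, 12805 and 8806 under O(5R)SK, while Cd163 stayed between 0.774 and 7.37 and Itgam and Spi1 lay below the filter. The median day 3 difference of these markers between the combinations, O(5R)SK minus O(WT)SK in log2 units, was -0.01. It was -0.25 on day 5 and -0.28 on day 7, with 21 and 18 of the 24 below 0. The 17 fibroblast markers had medians of -0.02, -0.09 and -0.17 on days 3, 5 and 7. Of 16 lymphocyte and dendritic cell markers on the array, Cd3g, Cd8a, Ly6d and Zbtb46 were above the filter, and all 4 were lower with O(5R)SK on day 3, by values of -1.38, -0.01, -0.51 and -0.18 (median -0.34). The summed intensity of the 16 was 482, 580 and 742 under O(WT)SK and 406, 562 and 722 under O(5R)SK, and the defining markers Cd3e, Cd4, Cd79a and Ms4a1 lay below the filter. The median day 7 difference of the 4 was -0.12, and over both combinations Ly6d rose between day 3 and day 7 (1.04, SE 0.102, limma, adjusted p = 0.0142). The 4 endothelial and 5 adipocyte markers above the filter had median day 3 differences of 0.28 and -0.18. Their medians were -0.25 and -0.36 on day 5 and 0.26 and -0.65 on day 7. The spiked-in control dap had a 3′ to 5′ ratio of 3.09 on the O(5R)SK day 3 array, where the other 5 arrays lay between 2.26 and 2.76, and the control thr had 3.78, where they lay between 2.05 and 2.56. The controls phe (1.15) and lys (2.22) on the O(5R)SK day 3 array lay within the range of the others, 1.08 to 1.47 and 2.09 to 2.44. The ratio of the cells' own Gapdh was 0.797 there, within the range of the others (0.768 to 0.803). The highest intensity on the O(5R)SK day 7 array was 34285, against at least 40353 elsewhere. Its median intensity was 68.0, where the other arrays lay between 59.0 and 61.4. The part of these marker and array values in the differences given here was not tested.

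On day 3 most of the interferon-stimulated genes read lower in cells with O(5R)SK than in cells with O(WT)SK. The difference O(5R)SK minus O(WT)SK on the log2(intensity + 16) scale, called the gap here, was below 0 for 28 of the 34 tested members (82.4%), where it was below 0 for 49.9% of all tested genes. The median gap was -0.22 over the members and 0.00 over all tested genes, and over all 41 members on the array it was -0.15. Oas2, Usp18, Gbp3, Ifit3, Iigp1 and Ifit1 were at least 1.5-fold lower, 6 of 34 against 2.53% of all genes, and Oasl1 alone was at least 1.5-fold higher, against 3.16% of all genes. Here and on the later days, such shares of all genes are not matched for brightness. Dim genes passed the 1.5-fold limit more often, and the day 3 split is given below with the dim and bright members. Just inside the 1.5-fold limit stood Ifit1 (-0.60) and Iigp1 (-0.61), and just outside it Bst2 (-0.53), Stat2 (-0.51) and Isg20 (-0.51). Each single-day gap rests on 1 array per side and has no test. The count of 6 became 2 with a pseudocount of 64 and 1 under the stricter dimness filter, which removes 16 of the 34 members.

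By day 5 the median gap of the members was -0.01, the same as over all tested genes, with 18 of 34 below 0 against 52.8% of all genes. At least 1.5-fold lower on that day were Igtp and Ifit1 (2 of 34, 2.96% of all genes), and at least 1.5-fold higher were Ifitm1, Psmb9 and Isg20 (3 of 34, 3.68% of all genes). On day 7 the median was 0.06, against -0.02 over all genes, and 12 of 34 members were below 0, against 52.4% of all genes. Oas2 was then the only member at least 1.5-fold lower (2.3% of all genes), while Cxcl10, Oas1a and Irf7 were at least 1.5-fold higher (3 of 34, 6.56% of all genes). Of the 28 members that were lower with O(5R)SK on day 3, 17 were higher with it on day 7. Choosing genes by a low day 3 gap favours such a change, and this share was not taken over all genes. For 24 of the 28 the day 7 gap was above the day 3 gap. Over all tested genes this held for 4143 of the 6294 with a day 3 gap below 0. When every array was set to one median, the day 7 median of all genes went from -0.02 to -0.14 and that of the members from 0.06 to -0.05, so that relative to all genes the members stood at 0.08 and 0.09. After quantile normalization the day 7 median of the members was -0.02, which is 0.02 relative to all genes, so its sign and its distance from all genes depend on the scaling.

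**Figure D1:**
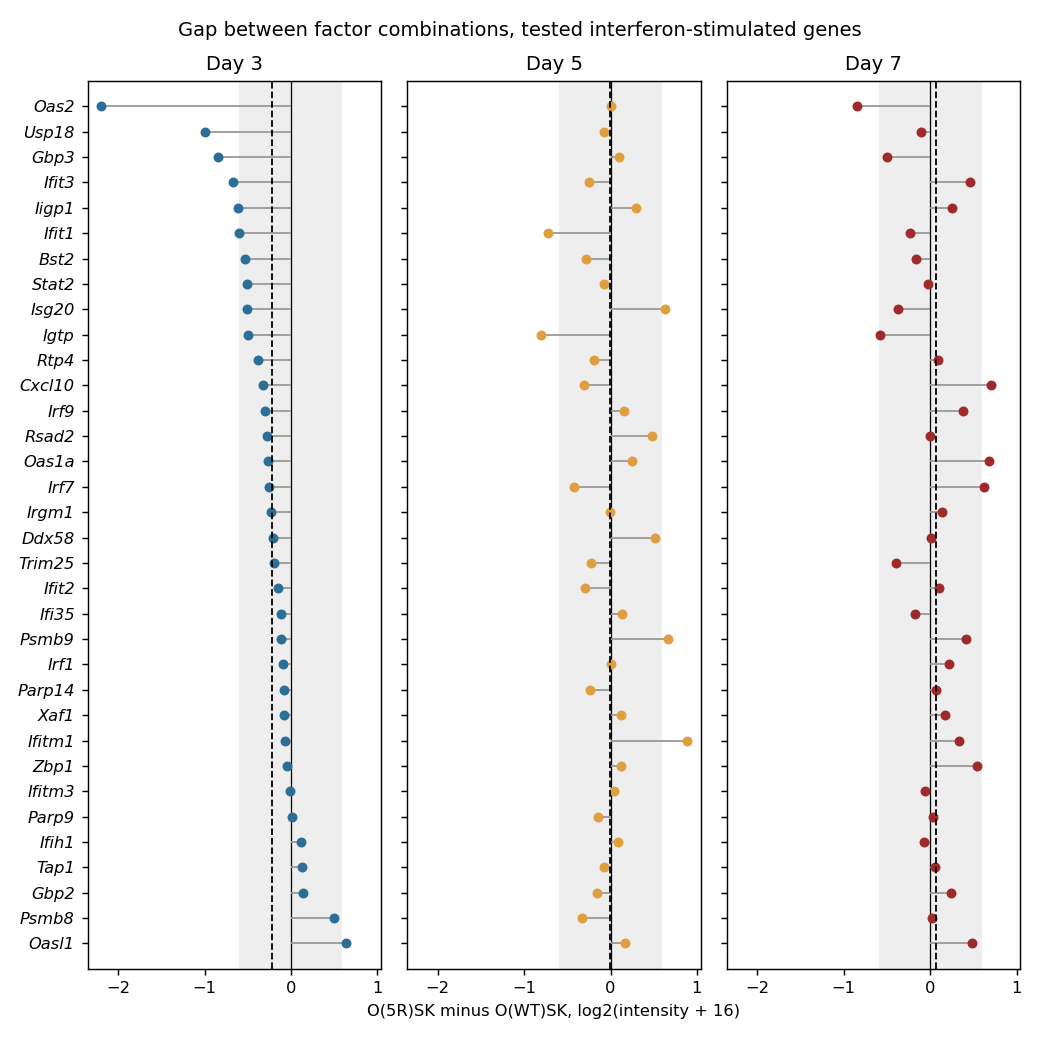
Gap between the factor combinations, O(5R)SK minus O(WT)SK on the log2(intensity + 16) scale, for the 34 tested interferon-stimulated genes on days 3, 5 and 7, with 1 array per combination and day. Genes are in order of their day 3 gap, the grey band marks less than 1.5-fold, the dashed line is the median of the members, and that median passes from -0.22 through -0.01 to 0.06.

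The closure of the gap was taken as the day 7 gap minus the day 3 gap, which equals the difference between the slopes of the combinations over 4 days. Its median was 0.32 over the members and -0.01 over all tested genes, and it was above 0 for 26 of 34 members and 48.6% of all genes. Of the members, 24 (70.6%) had both a day 3 gap below 0 and a closure above 0, against 32.8% of all genes. The gap and the closure share the day 3 arrays, so they are not separate evidence. In limma's test of the slope difference no member passed the threshold, and 0% of the 12622 genes did. The smallest adjusted p was 0.647 both among members and over all genes. Unadjusted p-values under 0.05 were found for Ifit3, Cxcl10, Usp18 and Zbp1 (4 of 34, all with a closure above 0), against 7.52% of all genes. With a day 3 or day 7 array left out, the slope of that combination rests on its remaining days, scaled to 4 days. The slope difference is then not the day 7 gap minus the day 3 gap. Its median was -0.07 without the O(WT)SK day 3 array and 0.38 without the O(5R)SK day 3 array. Without the O(WT)SK day 7 array it was 0.51.

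Between days 3 and 7 the median member was 0.44 higher with O(5R)SK and 0.06 higher with O(WT)SK, where the median of all tested genes was 0.03 in both. With O(5R)SK 29 of 34 members read higher on day 7 than on day 3, and with O(WT)SK 19 did, against 53% and 53.1% of all genes. Higher with O(5R)SK and lower with O(WT)SK were 11 members, among them Usp18, Ifit3, Oas2, Cxcl10, Oas1a, Irf7, Irf9 and Iigp1 (15.1% of all genes), and the opposite was true of Psmb8 alone (15.2%). The O(5R)SK day 3 array held the lowest of the 6 values for 14 of 34 members, against 19.3% of all genes, and the O(5R)SK day 7 array held the highest for 16, against 23.5%. These counts use the same day 3 arrays as the gap.

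**Figure D2:**
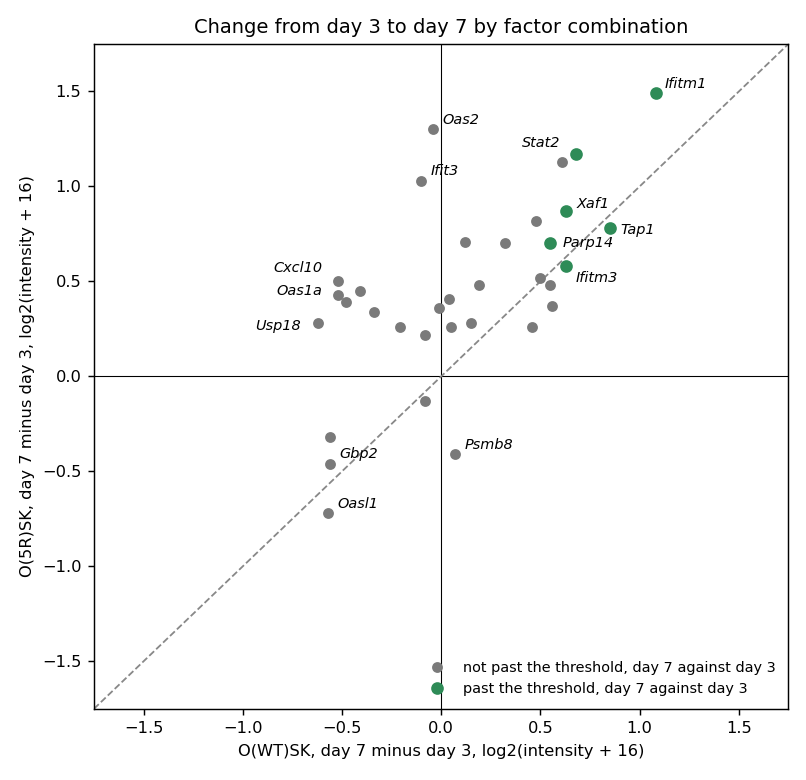
Difference between day 7 and day 3 on the log2(intensity + 16) scale with O(WT)SK (horizontal) and with O(5R)SK (vertical) for the 34 tested members, each point 1 gene and each difference from 1 array per side. Points above the dashed diagonal had a closure above 0 (26 of 34), and the green points are the 6 genes past limma's threshold for day 7 against day 3.

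The transcription factors of the pathway were all lower with O(5R)SK on day 3, with a median gap of -0.27 over the 4 and of 0.30 on day 7. Stat2, the partner of IRF9 in the complex that binds the ISRE, read 32.0, 60.8 and 61.1 under O(WT)SK and 17.7, 56.4 and 59.7 under O(5R)SK, values of a gene being given here in the order of the days. Both day 3 arrays were low and the later arrays were nearly level between the combinations. A further Stat2 probe set above the filter read 30.1, 37.3 and 37.5 under O(WT)SK and 23.7, 40.3 and 55.9 under O(5R)SK. Its day 7 gap was 0.42, so the closeness of Stat2 on day 7 depends on the probe set. Irf9, the DNA-binding part of that complex, read 234, 165 and 182 under O(WT)SK and 186, 186 and 241 under O(5R)SK. It thus had its highest value on day 3 in one combination and on day 7 in the other, and its closure was 0.68 (SE 0.317, limma, adjusted p = 0.704). Irf7, the factor that amplifies type I interferon production, read 102, 78.1 and 72.8 under O(WT)SK and 83.5, 54.3 and 120 under O(5R)SK, a gap of -0.25 on day 3 and 0.62 on day 7. Irf1, an interferon gamma-induced factor and the brightest of the 4, stayed between 417 and 488 on all arrays. The combinations overlapped for each of these genes.

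The group of IFIT genes and of genes around the ubiquitin-like protein ISG15 had 8 tested members, and all 8 were lower with O(5R)SK on day 3, with a median gap of -0.45. On day 7 the median gap was 0.05, and the closure was above 0 for each of the 8. A day 3 gap below 0 favours this, and 4143 of the 6294 tested genes with such a gap had a closure above 0. Usp18, the protease that removes ISG15 from proteins and damps signalling at the type I receptor, read 260, 180 and 164 under O(WT)SK and 123, 169 and 152 under O(5R)SK. The day 3 arrays stood apart in opposite directions, the O(WT)SK one highest and the O(5R)SK one lowest, while the other 4 arrays lay between them. The day 3 gap was -0.99 (1.99-fold), and the closure of 0.89 had an SE of 0.310 and an unadjusted p of 0.0421 in limma (adjusted p = 0.650).

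Ifit3, which encodes a partner of IFIT1, read 80.4, 87.0 and 73.9 under O(WT)SK and 44.6, 70.7 and 108 under O(5R)SK. Its values were close together with O(WT)SK and higher at each later day with O(5R)SK, from the lowest of the 6 arrays to the highest. The closure was 1.13 (SE 0.201), the smallest unadjusted p among the members (0.00414), with an adjusted p of 0.647 in limma. Ifit1, which binds RNA that lacks the host's cap methylation, read 48.8, 43.1 and 65.1 under O(WT)SK and 26.6, 19.9 and 53.1 under O(5R)SK, near the dim end of the array. Here O(5R)SK was lower on every day and both combinations were highest on day 7. Ifit2, a further IFIT protein, read between 254 and 383 on all arrays, with a gap of -0.15 on day 3.

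Isg20, an RNA exonuclease, read 116, 73.2 and 130 under O(WT)SK and 76.8, 122 and 96.9 under O(5R)SK, and its order of combinations changed on each day. Rtp4, a chaperone of membrane receptors that is also interferon-induced, read 133, 94.3 and 113 against 98.3, 80.9 and 121. Rsad2, which encodes viperin, an enzyme that makes a chain-terminating nucleotide, read 75.9, 46.2 and 89.1 against 59.8, 70.8 and 89.3. For Rtp4 and Rsad2 the combinations were close on day 7, with gaps of 0.09 and 0.00 after -0.38 and -0.28 on day 3. A further Rsad2 probe set above the filter had gaps of -0.32 on day 3 and -0.56 on day 7, so the closeness of Rsad2 on day 7 depends on the probe set. Xaf1, a pro-apoptotic zinc finger gene and the brightest of the group, differed by only -0.08 on day 3 and is described with the genes that were higher on day 7.

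**Figure D3:**
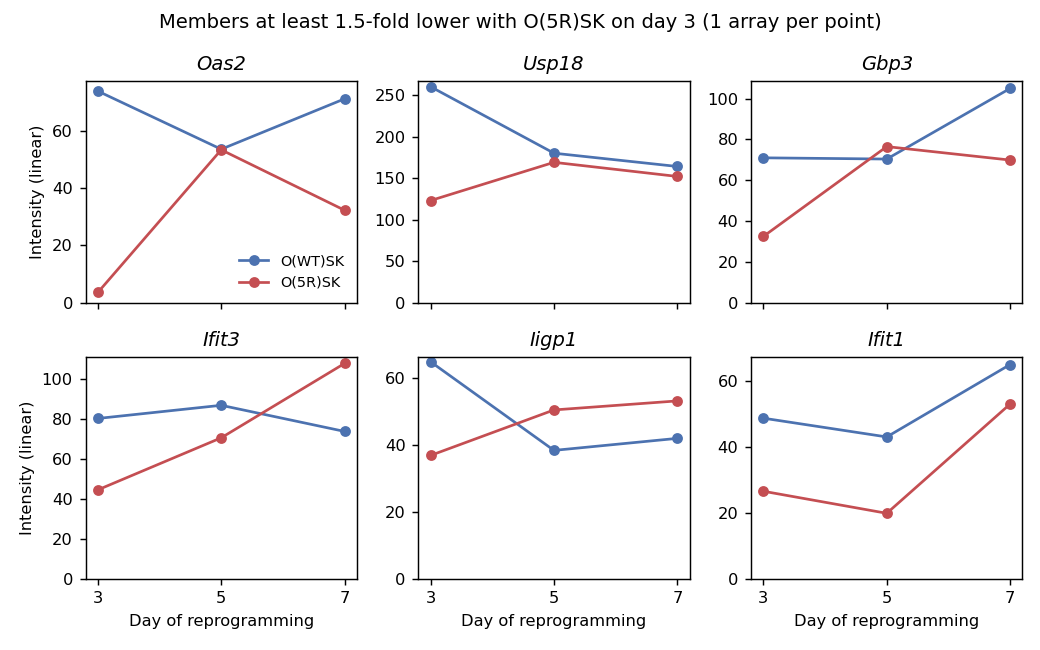
Linear intensity on days 3, 5 and 7 of the 6 members that were at least 1.5-fold lower with O(5R)SK on day 3, with 1 array per point, O(WT)SK in blue and O(5R)SK in red. The gap of Usp18 is -0.99 on day 3 and -0.10 on day 7, whereas Oas2 reads 3.58 on the O(5R)SK day 3 array and remains lower on day 7.

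Among the 2′-5′ oligoadenylate synthetase genes and RNA sensors, 7 members were tested and 5 were lower with O(5R)SK on day 3, with a median gap of -0.20. Oas2, whose enzyme makes the oligoadenylates that activate RNase L, read 73.9, 53.6 and 71.2 under O(WT)SK and 3.58, 53.4 and 32.3 under O(5R)SK. The O(5R)SK day 3 value lies far below the filter intensity, so the gap of -2.20 depends on the pseudocount and was -4.03 with 1 and -1.03 with 64. The gap was 0.00 on day 5 and -0.85 on day 7. Oas1a, a synthetase of the same kind, read 147, 91.8 and 98.1 under O(WT)SK and 119, 112 and 167 under O(5R)SK, lower on day 3 and higher on days 5 and 7 with O(5R)SK. Oasl1, a synthetase-like protein that lacks the enzyme activity and restrains Irf7 translation, read 41.1, 24.1 and 22.4 under O(WT)SK and 72.8, 29.0 and 37.9 under O(5R)SK. It was the member that departed most from the others, higher with O(5R)SK on each day and highest on day 3 in both combinations.

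The helicase sensors were near level on day 7. Ifih1, which encodes MDA5, had gaps of 0.12, 0.09 and -0.07 on days 3, 5 and 7, and Ddx58, which encodes RIG-I, had gaps of -0.21, 0.51 and 0.01. Trim25, the ubiquitin ligase that acts on RIG-I and the brightest gene of the group, read 2644, 2877 and 3635 under O(WT)SK and 2292, 2453 and 2751 under O(5R)SK, lower with O(5R)SK on every day. Zbp1, a sensor of Z-form nucleic acid, read 143, 147 and 157 under O(WT)SK and 137, 161 and 235 under O(5R)SK, with a closure of 0.60 (SE 0.205) that had an unadjusted p of 0.0415 in limma (adjusted p = 0.650). A second Zbp1 probe set gave a day 3 gap of -1.99 where the one used gave -0.05, so the probe sets of this gene disagree on day 3. Over the 8 members with further probe sets above the filter, 7 of 10 such probe sets had a day 3 gap below 0, and those of Zbp1 and 1 of Trim25 (-0.69) were at least 1.5-fold lower.

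The interferon-inducible GTPases, which attack vacuoles that hold pathogens, had a median day 3 gap of -0.50 over 5 members, with 4 below 0. Gbp3, a guanylate-binding protein, read 71.0, 70.4 and 105 under O(WT)SK and 32.5, 76.5 and 69.9 under O(5R)SK. Its O(5R)SK day 3 array was the lowest of the 6, and the gap turned from -0.84 on day 3 to 0.10 on day 5 and -0.50 on day 7. Iigp1, an immunity-related GTPase, read 64.9, 38.4 and 42.0 against 36.9, 50.5 and 53.2. Its combinations exchanged places between day 3 and day 5. A second Iigp1 probe set, which lay below the filter, had gaps of 0.65, 0.67 and -0.59 on days 3, 5 and 7.

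Igtp, another immunity-related GTPase, read 124, 196 and 189 under O(WT)SK and 83.0, 105 and 122 under O(5R)SK. Its gap was no narrower on day 7 than on day 3, and every O(5R)SK array was below every O(WT)SK array, with gaps of -0.50, -0.81 and -0.58. Irgm1, the regulator of these GTPases and the brightest of the group, read 537, 540 and 535 against 455, 535 and 590, flat in one combination and higher at each later day in the other. Gbp2 was higher with O(5R)SK on day 3 (0.14) and lower on day 7 than on day 3 in both combinations, by values of -0.56 and -0.46.

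Over the 3 days together, the combinations could be compared with day as a term in limma, where the days stand in for replicates. The median combination difference over the members was -0.02, against -0.01 over all tested genes. No member passed the threshold, and 0% of the 12622 genes did. The smallest adjusted p was 0.296 among members and 0.107 over all genes. An unadjusted p under 0.05 was found for 5 of 34 members, against 9.35% of all genes. These were Igtp (-0.63, SE 0.0981), Ifit1 (-0.52, SE 0.124), Bst2 (-0.32, SE 0.104), Trim25 (-0.28, SE 0.0861) and, higher with O(5R)SK, Oasl1 (0.43, SE 0.119). With a trended and robust prior, limma called 82 of all genes and no member. Lower with O(5R)SK on each day were 7 of 34 members, against 17.9% of all genes, and higher on each day was Oasl1 alone, against 15.9%.

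Of the membrane restriction factors and related genes, 4 were tested and their median day 3 gap was -0.10. Bst2, which encodes tetherin, the protein that holds budding virions at the cell surface, read 486, 468 and 502 under O(WT)SK and 333, 383 and 447 under O(5R)SK. All 3 O(5R)SK arrays were below all O(WT)SK arrays, and the gap narrowed from -0.53 through -0.28 to -0.16. Ifi35, a leucine zipper protein that was bright on all arrays, had gaps of -0.12, 0.13 and -0.17. The genes for IFITM1 and IFITM3, membrane proteins that hinder fusion of viruses with the cell, had day 3 gaps of only -0.07 and -0.01.

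The chemokine Cxcl10, which draws activated T cells, read 48.8, 48.7 and 29.2 under O(WT)SK and 35.9, 36.2 and 57.3 under O(5R)SK. The combinations were level between days 3 and 5 and parted in opposite directions on day 7, when O(5R)SK gave the highest of the 6 values and O(WT)SK the lowest. Its closure of 1.02 (SE 0.326) had an unadjusted p of 0.0329 in limma (adjusted p = 0.647). Cxcl9 and Cxcl11, the other ligands of the same receptor, were below the filter.

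The 3 genes of antigen processing had a median day 3 gap of 0.13, and 1 of them was below 0. Psmb8, a subunit of the immunoproteasome, read 68.4, 70.3 and 72.3 under O(WT)SK and 103, 52.6 and 73.4 under O(5R)SK, highest on the O(5R)SK day 3 array. Psmb9, another subunit, read 26.2, 22.3 and 48.5 against 23.1, 44.5 and 69.7, highest on day 7 in both combinations, and its day 7 against day 3 difference of 0.87 (SE 0.206, adjusted p = 0.0691) did not pass in limma. The ADP-ribosyltransferase genes Parp9 and Parp14, whose products act in interferon signalling, had day 3 gaps of 0.01 and -0.08. Parp9 read 238, 285 and 343 under O(WT)SK and 240, 257 and 351 under O(5R)SK, with little between the combinations on any day.

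Over both combinations, 6 of the 34 members rose between day 3 and day 7 in limma (17.6%, against 6.52% of all genes) and 0 fell (against 3.68% of all genes). The median difference was 0.28 over the members and 0.03 over all tested genes, and without the O(5R)SK day 3 array that of the members was 0.07. In these tests the combinations stand in for replicates of the day. The 6 genes came from 5 roles, and they are not those with the largest day 3 gaps: Stat2 apart, each had a day 3 gap between -0.08 and 0.13.

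Ifitm1 read 88.1, 49.2 and 204 under O(WT)SK and 82.9, 105 and 261 under O(5R)SK, and rose by 1.28 (2.43-fold, SE 0.244, limma, adjusted p = 0.0458). Stat2, with the values given above, rose by 0.93 (1.90-fold, SE 0.154, adjusted p = 0.0353). Both day 7 arrays of Ifitm1 lay above its other 4 arrays. Stat2 had reached its day 7 level on day 5 in the probe set used. Tap1, the peptide transporter that loads MHC class I, read 121, 153 and 230 against 134, 145 and 241, and rose by 0.82 (1.76-fold, SE 0.105, adjusted p = 0.0225). Xaf1 read 967, 1206 and 1503 against 917, 1310 and 1691, and rose by 0.75 (1.68-fold, SE 0.111, adjusted p = 0.0284). For both genes the values were in the order of the days in each combination, and the combinations overlapped.

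Parp14 read 71.5, 79.4 and 112 under O(WT)SK and 66.8, 64.7 and 118 under O(5R)SK, and rose by 0.63 (1.54-fold, SE 0.118, adjusted p = 0.0448). Ifitm3, by far the brightest member, read 8107, 8530 and 12594 against 8079, 8789 and 12054, and rose by 0.61 (1.52-fold, SE 0.0964, adjusted p = 0.0330). In both genes the day 7 arrays stood above the day 3 and day 5 arrays. None of the 6 passed when any single day 3 or day 7 array was left out or when no filter was applied. Of the alternatives in which a gene was tested, its call held in 9 of 14 for Xaf1 and 8 of 13 for Tap1. It held in 6 of 13 for Ifitm1, 6 of 14 for Ifitm3, 5 of 13 for Stat2 and 1 of 13 for Parp14. With a pseudocount of 1, limma's adjusted p was 0.0538 for Stat2, 0.0714 for Ifitm1 and 0.0529 for Parp14. Both day 3 values of Stat2 lay below the filter intensity. The mean over all probe sets of Parp14 gave 0.09 in place of 0.63.

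**Figure D4:**
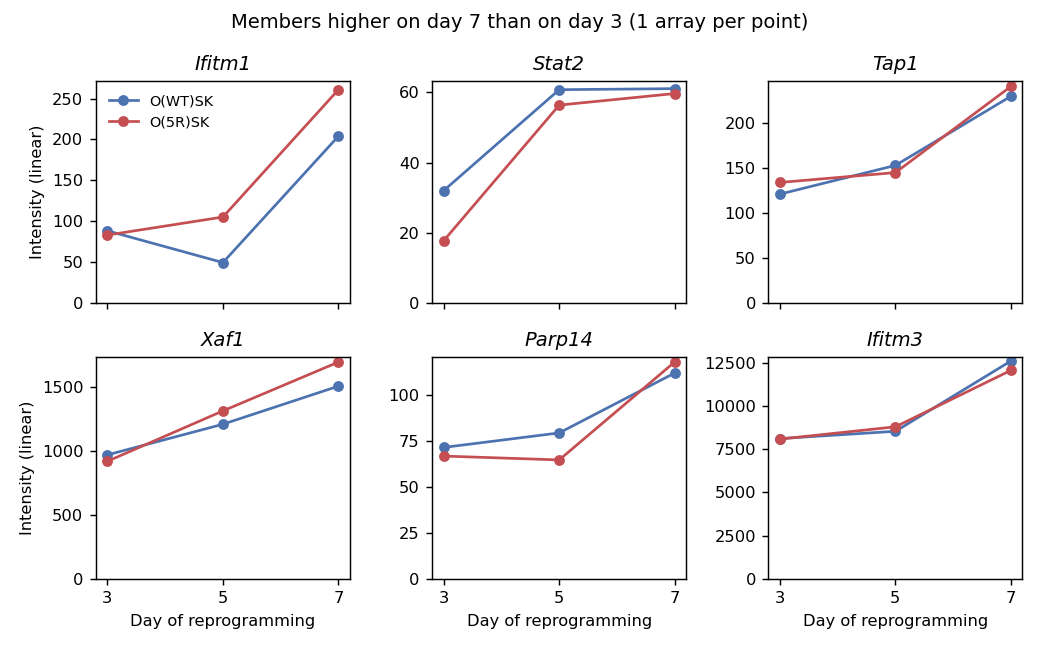
Linear intensity on days 3, 5 and 7 of the 6 members past limma's threshold for day 7 against day 3, with 1 array per point, O(WT)SK in blue and O(5R)SK in red. Each gene apart from Stat2 is highest on the day 7 arrays in both combinations. In the probe set used, Stat2 is at its day 7 level on day 5.

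Dim and bright members showed the day 3 gap alike in direction. Over the 21 members with a mean intensity of at least 100 the median gap was -0.15, with 17 below 0, and over the 13 dimmer ones it was -0.32, with 11 below 0, where all brighter genes had a median of 0.00 and all dimmer genes 0.02. Their median closures were 0.24 and 0.48, against -0.02 and 0.10 over the brighter and dimmer of all genes. In the same order, the median day 7 gaps were 0.06 and 0.07, against -0.03 and 0.11. The median changes with O(5R)SK from day 3 to day 7 were 0.36 and 0.70, against 0.01 and 0.16. At least 1.5-fold lower on day 3 were 5 of the 13 dimmer members, against 231 of the 2353 dimmer of all tested genes. Among brighter genes it was 1 of the 21 members, against 88 of all 10269. The difference between these shares was not tested. Grouped by promoter, the 14 tested members with an ISRE core match had a median day 3 gap of -0.30, with 12 below 0, and the 13 without a match in this window had a median of -0.11, with 10 below 0. The 7 tested members whose promoter was not in the table had a median of -0.38, with 6 below 0. The median closures of these groups were 0.36, 0.24 and 0.60. The difference between the groups was not tested.

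The genes around the listed members in the pathway were read in the same way. Of 20 interferon ligand genes, 9 were on the array and none reached the filter, with intensities from 0.452 to 40.5. For interferon receptors and signal transducers, 14 genes were tested and the median day 3 gap was -0.01, with 7 below 0. Ptpn6, a phosphatase of cytokine receptors, had the largest gap (-0.72), followed by the receptor kinase gene Tyk2 (-0.38). The feedback inhibitor Socs1 stood at -0.29. Socs3, another feedback inhibitor of cytokine signalling, had a day 3 gap of 0.21. Socs3 was also the only gene of this list past limma's threshold for day 7 against day 3 (0.94, SE 0.158, adjusted p = 0.0360).

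Of genes that lead from nucleic acid sensing to interferon, 13 were tested, with a median day 3 gap of 0.03 and 5 below 0. The endosomal DNA sensor Tlr9 (1.36) and the transcription factor Irf5 (1.02) were higher with O(5R)SK on day 3, as was the adaptor gene Mavs (0.48), while the adaptor gene Ticam1 stood at -0.35. Between day 3 and day 7 the kinase gene Ikbke rose (0.66, SE 0.121, limma, adjusted p = 0.0435) and the nucleotide hydrolase gene Samhd1 fell (-0.99, SE 0.0941, adjusted p = 0.0140). Thus neither the signalling list nor the sensing list had the lower day 3 median of the members.

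A further list of 60 interferon-induced genes gave 38 tested genes, with a median day 3 gap of -0.12 and 25 below 0, and a median closure of -0.02. The largest gaps were those of Uba7, the activating enzyme of ISG15 (-1.13), the chemokine Ccl5 (-0.73), the nuclear protein gene Ifi203 (-0.56) and Dtx3l, the ubiquitin ligase partner of PARP9 (0.52). Uba7 read 64.5, 47.9 and 78.0 under O(WT)SK and 20.8, 53.9 and 90.6 under O(5R)SK, lowest on the O(5R)SK day 3 array and higher with O(5R)SK on both later days. Between day 3 and day 7 Gbp7, Mov10, Parp12, Phf11d, Pml and Tor3a rose, by 0.60 to 1.05 (6 of 38, against 6.52% of all genes). Ccl5 (-2.78) and Ifi27l2b (-2.40) fell (2 of 38, against 3.68% of all genes). Over these 8, limma's adjusted p ran from 0.0117 to 0.0477. Of the 24 macrophage markers above the filter, 14 fell over the same days, against 3.68% of all genes. Laptm5 (0.33) and Fcgr1 (0.40) read higher on day 7 without passing the threshold. The part of such cells in the values of Ccl5 and Ifi27l2b was not tested.

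MHC class I and antigen processing genes had a median day 3 gap of -0.09 over 13 tested genes, with 10 below 0. The largest gaps were those of H2-M3 (0.37), B2m, the class I light chain (-0.28), the class I heavy chain gene H2-K1 (-0.23) and the chaperone gene Canx (-0.18). Tapbp, which encodes tapasin, rose between day 3 and day 7 (0.80, SE 0.119, limma, adjusted p = 0.0287). Genes of the NF-kB response, which inflammatory signals induce by another route, had a median day 3 gap of 0.01 over 18 tested genes, and 7 of the 18 rose between day 3 and day 7 while 1 fell, against 6.52% and 3.68% of all genes. Without any single day 3 or day 7 array limma called 0 of all genes for day 7 against day 3, so none of the calls in these pathway and marker lists held there. Among these the chemokine genes Cxcl5 (0.97) and Cxcl1 (0.67) and the cytokine gene Il6 (0.58) were higher with O(5R)SK on day 3, and the acute phase gene Saa3 was lower (-0.58).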

How the data were processed

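The authors deposited 1 linear intensity for each probe set on each array. The submitters' processing notes name affy, and its version, the summary method and any background correction were not given in the sources used here. Of 45101 probe sets, 64 are controls. In the platform annotation 34958 name 1 gene, 932 several and 9211 none, and genes were named only from the first kind. Per-sample columns left unused numbered 0.

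Values were taken as log2(intensity + 16), which understates changes of dim genes. The filter was the 40th percentile of probe-set means (log2 5.63). Tests used limma 3.58.1 (lmFit, eBayes) in R 4.3.3 with version 1.17.8 of data.table, with Benjamini-Hochberg adjustment over all tested genes and a threshold of 0.05. One fit had combination and day (3 levels) as terms, the other combination by numeric day. Each has 4 coefficients and 2 residual degrees of freedom, and the prior added 2.6 and 2.22. The number of arrays limits the precision. Both fits were run on simulated data with planted changes larger than the median gaps and closures given here. That run therefore says nothing about differences as small as those. Figures and promoter matches used Python 3.11.15, pandas 2.3.3 and matplotlib 3.10.9.

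Members and lists were chosen with earlier results of these data known. Named are the 16 members with the largest day 3 gap, the 8 with the largest day 7 against day 3 difference, those past a threshold, the brightest of each role, and the 4 largest day 3 gaps of each pathway list. Other named genes, such as Oas1a, Irf7, Zbp1, Ddx58, Ifih1, Ifit2, Gbp2 and Ifi35, and pathway genes named only for passing a threshold, were chosen after their values were seen. Markers of lymphocytes and dendritic cells (4 of 16 on the array above the filter), endothelium (4 of 10) and adipocytes (5 of 9) were read beside those of fibroblasts and macrophages. The alternatives were pseudocounts of 1 and 64, quantile normalization, a common median, no filter and a filter at the 60th percentile, the mean of all probe sets of a gene, a trended and robust prior, a 2-fold limit, and leaving out each array.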

Additional observations from a re-analysis of the deposited data

How the results depend on the processing

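The median day 3 gap of the members kept its sign under the 7 alternatives that apply, from -0.26 to -0.14. The counts of members at least 1.5-fold apart are small and depend on the choices. With a 2-fold limit, lower and higher members numbered 1 and 0 on day 3, 0 and 0 on day 5, and 0 and 0 on day 7. With the filter at the 60th percentile, which leaves 18 members, they numbered 1 and 0, 1 and 0, and 0 and 1. With a pseudocount of 64 they numbered 2 and 0, 1 and 0, and 0 and 0, and the median closure was 0.21. With a pseudocount of 1, higher members on day 3 and lower members on day 7 numbered 2 and 3. With no filter, 2 members were higher on day 3, and 5 were higher and 4 lower on day 5. The mean of probe sets gave 2 higher on day 3. Quantile normalization gave 1 higher and 3 lower on day 7. A common median gave 0 higher and 3 lower on day 7, with medians of -0.05 for the day 7 gap, 0.20 for the closure and 0.18 for day 7 against day 3. The cause of these changes was not tested beyond what the settings themselves do.

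For day 7 against day 3, members called higher numbered 6 as reported, 3 with a pseudocount of 1 or the mean of probe sets, and 0 with no filter. Members called lower numbered 0 as reported, 1 with a common median or quantile normalization, and 2 with the filter at the 60th percentile. Leaving out either day 5 array gave 5 called higher, and none of the calls held without a day 3 or day 7 array. Over the fits with 1 array left out, the median ran from 0.07 (without O(5R)SK day 3) to 0.40 (without O(WT)SK day 3). The median slope difference ran from -0.07 to 0.51, and without a day 3 or day 7 array it is not a difference of those 2 gaps. Over all genes the day 7 against day 3 calls numbered 1287 as reported, 0 with no filter or without any day 3 or day 7 array, 1968 with a pseudocount of 64, 2202 with the filter at the 60th percentile and 2846 with the trended and robust prior. For the combination difference the calls were 0 as reported, 2, 27 and 82 under the last 3 settings, and for the closure 0 as reported and 2 with the trended and robust prior, with no member among them under any alternative. No paired analysis was possible because the labels give no replicate numbers, beyond the pairing by day that the combination fit already holds as a term. With 1 array per side, dim members such as Oas2, Ifit1 and Oasl1 cannot be placed more exactly than the pseudocount allows.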
